A study of Mus musculus with 6 samples.

Results

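Macrophages (MPs) that enter injured muscle clear dead cells, a process called efferocytosis, and the genes described here encode receptors, bridging factors and engulfment proteins of that process, together with a lipid scramblase. The list held 10 genes, Mertk, Axl, Timd4, Gas6, Pros1, Mfge8, Elmo1, Dock2, Gulp1 and Xkr8. It was chosen by gene name, with earlier results of these data known. Of these, 9 were found in the table by symbol and gene identifier among 13008 genes, and Gulp1 was not analysed here. RNA-seq was carried out on GFP+/F4/80+/Ly6CLow MPs sorted from hind limb muscles on day 5 after cardiotoxin injury, in 3 Control and 3 Cripto KO samples. All mice were 3-month-old males on the C57BL/6J strain according to the labels. The Cripto KO mice carried Tg:LysMCre::Cripto-/-, in which Cre under lysozyme M control deletes Cripto, a membrane co-receptor of TGFβ family ligands, in myeloid cells. The study's text adds a R26mTmG reporter, which turns cells GFP+ after Cre has acted, and gives Tg:LysMCre::R26mTmG for its Controls, whereas the labels call them wild type. The study describes the deletion as incomplete in MPs as a whole and more extensive in GFP+ cells, and the labels do not say whether a sample came from 1 mouse or from a pool, so that p-values measure the spread between these samples.

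A dying cell exposes phosphatidylserine on its surface. Phagocytes bind that lipid either directly, as the TIM-4 receptor does, or through bridging proteins that hold the lipid with one end and a receptor with the other. GAS6 and protein S bridge to the TAM receptor tyrosine kinases, of which MERTK and AXL are members, and MFG-E8 bridges to integrins. Inside the phagocyte, ELMO proteins and their DOCK partners activate the small GTPase RAC, which drives the actin cup around the corpse. In regenerating muscle this uptake accompanies the passage of MPs from the pro-inflammatory to the repair state.

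Each deposited value was a normalized value, in which 0.5 was added to a gene's reads and the sum was scaled to 1000000 reads of the library after normalization. Total recovered reads ranged from 12688968 to 14141773 across Control and from 14633880 to 15659847 across Cripto KO samples, and 3 reads, taken here as the floor, were worth between 0.222 and 0.286. The deleted gene, Cripto, was not analysed here and gave no check of the labels. In Control replicate 1, Xist was at 171, against 0.114 to 0.885 in the other 5 samples, although the label gives a male. In Control replicate 2, Lyz2, the gene whose locus drives the Cre, was at 11066, against 21.2 to 28.3 in the others. The fold changes of the 9 genes were therefore also computed without each sample. All 8 MP markers examined (Mertk among them) were in the table, as the label of the cells has it, and their summed value was from 5697 to 6166 across Control and from 5491 to 6091 across Cripto KO samples. Summed markers of Ly6C-high monocytes (85.3 to 114 in Control and 95.6 to 111 in Cripto KO), endothelial cells (57.5 to 66.5 and 58.9 to 66.6), neutrophils (98.6 to 106 and 93.2 to 101), lymphocytes (6.16 to 11.0 and 8.11 to 8.92) and dendritic cells (7.38 to 10.7 and 8.29 to 9.06) overlapped between the groups. The neutrophil markers S100a9 and Retnlg and the B cell marker Cd79a were at or under 3 reads in every sample. The summed value of the 8 muscle markers ranged from 35.1 to 71.3 across Control and from 19.3 to 55.1 across Cripto KO samples. Of these markers 0 passed adjustment (limma), beside 0.131% of all genes. At an unadjusted p-value under 0.05 there were 5 (limma), beside 8.59% of all genes. Among these 5, Myh4, Myh1, Ckm and Tnnt3, of mature fibres, had lower means in Cripto KO samples, and Myog, of differentiating myoblasts, a higher one. The remaining markers, Acta1, Mylpf and Des, had log2 fold changes of -0.28, 0.07 and 0.22. Of the 8 muscle markers, 3 had a log2 fold change above 0, beside 47.4% of all genes, and 5 had one below 0. Their part in the results was not tested. In bulk samples fewer cells of a type and less RNA per cell cannot be told apart.

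None of the 9 genes differed between Control and Cripto KO MPs at an adjusted p-value under 0.05 (limma on log2 values, Benjamini-Hochberg adjustment over all genes), where 0.131% of all genes did. The edgeR quasi-likelihood test on the recovered reads also gave 0 of 9, with 0.131% of all genes called, and the count in limma was 0 without any single sample. At an unadjusted p-value under 0.05 there was 1 gene, Mfge8, in either test, beside 8.59% of all genes in limma and 8.47% in edgeR. The log2 fold change of Cripto KO over Control was above 0 for 7 of the 9 genes, beside 47.4% of all genes, and its median was 0.08 over the 9 genes and -0.01 over all genes. Only the 3 Elmo1 values of each group did not overlap those of the other, which is 1 of 9 genes beside 14.5% of all genes. With fewer samples groups overlap less often: this count was 3 (Mertk, Elmo1 and Dock2) without Control replicate 1, beside 28.06% of all genes, and 2 (Mfge8 and Elmo1) without Control replicate 3 or Cripto KO replicate 3, beside 22.83% and 21.91%. A p-value over the threshold does not show equality, and the size of difference that remained possible is given for each gene by its 95% confidence interval.

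**Figure D1:**
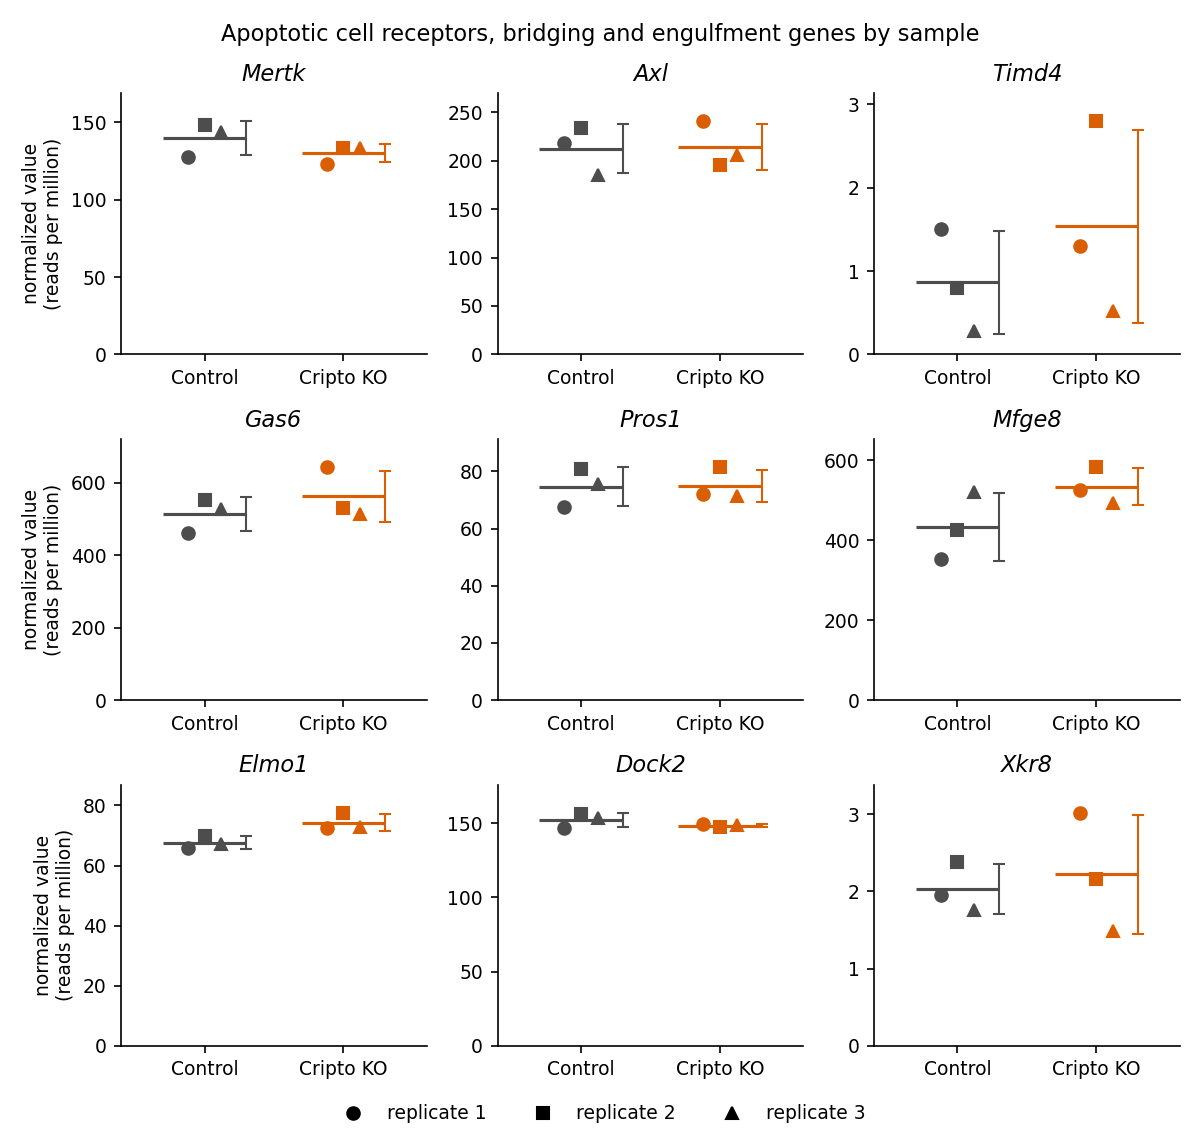
Normalized values (vertical axis, reads per 1000000, starting at 0) of 9 efferocytosis genes in the 3 Control and 3 Cripto KO samples. Points are samples, with a symbol for each replicate, horizontal lines are group means and bars are SDs (n = 3). Elmo1 is the gene whose groups do not overlap, while Timd4 and Xkr8 lie near the bottom of the measured range.

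**Figure D2:**
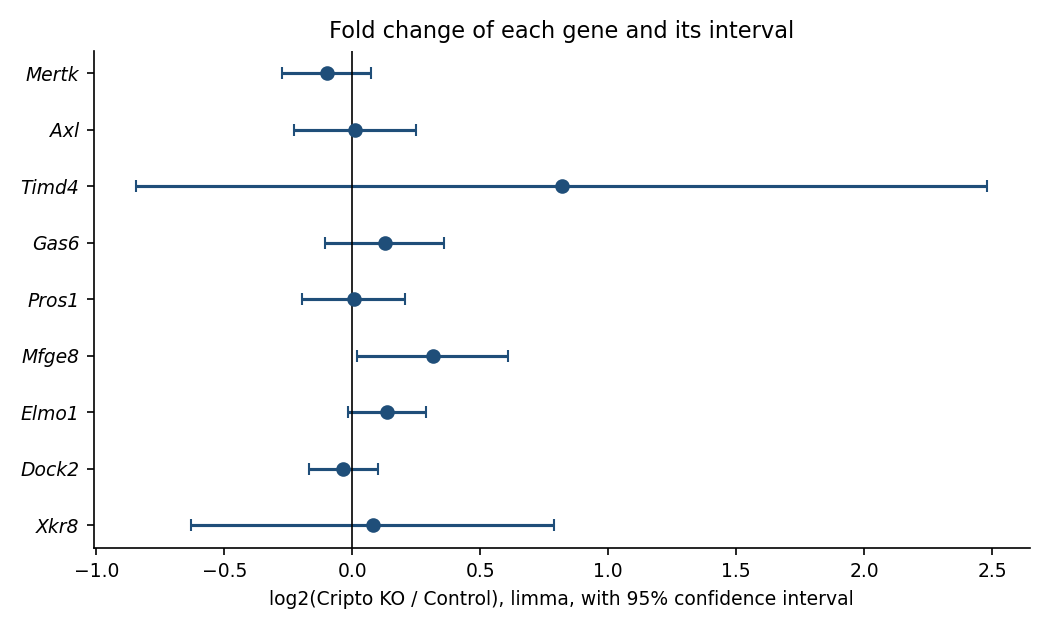
Log2(Cripto KO/Control) of the 9 genes (horizontal axis) with 95% confidence intervals from limma. The interval of Mfge8 lies between 0.02 and 0.61 and the others include 0, with that of Timd4 reaching from -0.84 to 2.48.

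The levels of these genes, divided by their exon length so that genes could be compared, spanned a wide range. Gas6 was the highest at 211 per kb (range 180.4 to 252 over the 6 samples), above 97.8% of all genes, and Mfge8 followed at 103 per kb (75.3 to 124), above 95.8%. Next were the TAM receptors, Axl at 42.4 per kb (36.7 to 47.8) and Mertk at 31.1 per kb (28.4 to 34.2). Pros1 was at 18.3 per kb (16.5 to 19.9), Dock2 at 13.2 per kb (12.8 to 13.7) and Elmo1 at 5.64 per kb (5.23 to 6.16). Timd4 and Xkr8 came last at 0.553 and 0.493 per kb, with 16.2% and 14.8% of all genes below them. Each gene lay above its next neighbour in 6 of 6 samples with no overlap of their ranges, except Timd4, which exceeded Xkr8 in 2 of 6. The order in part rests on which exons are counted. With the longest transcript in place of all annotated exons, Mfge8 reached 208 per kb and Gas6 was above it in 3 of 6 samples, Dock2 (23.4 per kb) passed Pros1 (22.7 per kb), and Elmo1 was at 13.0 per kb.

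**Figure D3:**
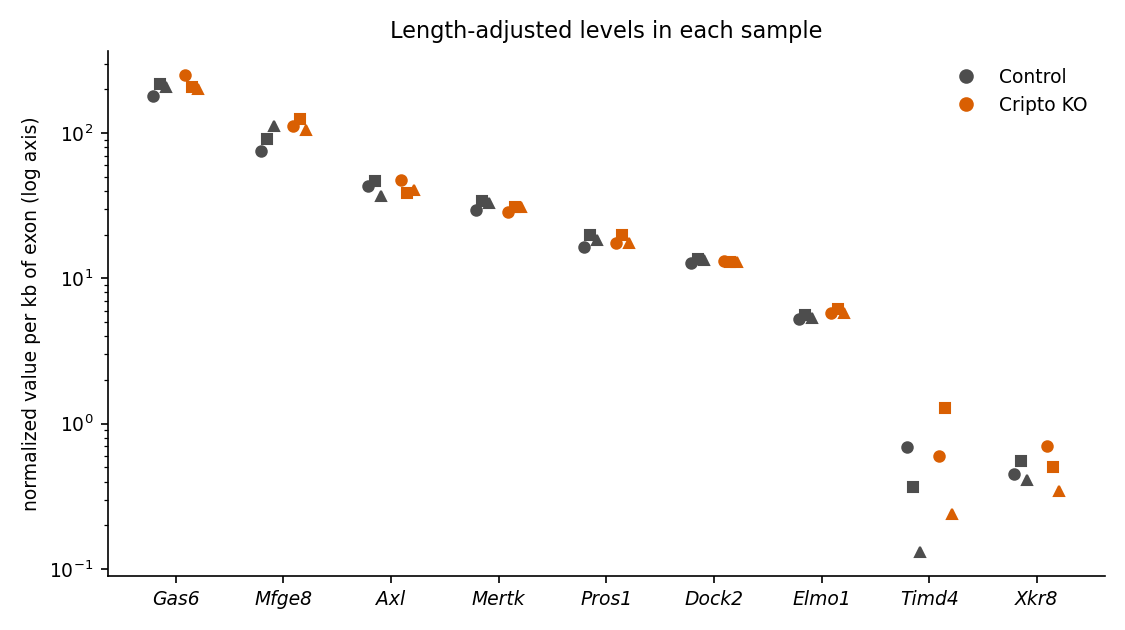
Normalized value per kb of exon (log axis) of the 9 genes in each of the 6 samples, in order of their mean. The values of Gas6, between 180.4 and 252, exceed those of all other genes, and Timd4 and Xkr8 overlap at the low end.

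Among the receptors, Mertk (ENSMUSG00000014361; chromosome 2, 128698956 to 128802894, GRCm38), the TAM kinase of resting and repair-type MPs, was at 128, 148 and 144 in Control and at 123, 134 and 134 in Cripto KO replicates 1 to 3. The group means were 139.8 ± 10.8 and 130.2 ± 5.97 (SD, n = 3), and the ranges overlapped because Control replicate 1 was lower than 2 of the Cripto KO samples. The fold change was 0.933, with an interval from 0.828 to 1.05 (log2 change -0.10, SE 0.08, limma-adjusted p = 0.754). Leaving out single samples gave log2 fold changes between -0.16 without Control replicate 1 (unadjusted p = 0.043, adjusted p = 0.467, limma) and -0.057 without Control replicate 2, with -0.061 without Cripto KO replicate 1.

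Axl (ENSMUSG00000002602; chromosome 7, 25757273 to 25788705), the TAM kinase that inflammatory signals induce in MPs, was at 219, 234 and 185 in Control and at 241, 196 and 206 in Cripto KO samples. The means of 213 ± 25.2 and 214 ± 23.5 (SD, n = 3) differed by less than their SDs, and the ranges overlapped. The fold change was 1.01 with an interval from 0.854 to 1.19 (log2 change 0.01, SE 0.11, limma-adjusted p = 0.986), and its sign turned without Control replicate 3 or Cripto KO replicate 1. Per kb of exon, Axl exceeded Mertk by 1.48-, 1.36- and 1.11-fold in Control and by 1.68-, 1.26- and 1.33-fold in Cripto KO replicates 1 to 3. This ratio, which does not depend on library size, differed by 0.11 on the log2 scale between the group means (exact two-sided permutation test, p = 0.6, also 0.6 after adjustment over 2 ratios, where 3 samples against 3 cannot give less than 0.1). The size of the ratio, but not its group difference on the log2 scale, depends on the exon length used. With the longest transcript, mean levels were 50.0 per kb for Axl and 31.4 per kb for Mertk. Tyro3, the remaining TAM receptor, was not analysed here.

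Timd4 (ENSMUSG00000055546; chromosome 11, 46810800 to 46844332) encodes TIM-4, a phosphatidylserine receptor typical of resident MPs. It was at 20, 10 and 3 reads in Control and at 20, 39 and 7 reads in Cripto KO samples, or between 0.286 and 2.80 as a normalized value. Values spread over 9.79-fold between samples and each group held both low and high ones. The reads summed to 33 in Control (exact 95% Poisson interval 22.7 to 46.3) and to 66 in Cripto KO samples (51.0 to 84.0), and these intervals cover counting error alone. Cripto KO replicate 2 contributed 39 of the 66 reads. The log2 change of 0.82 (SE 0.74, limma-adjusted p = 0.795) had an interval from -0.84 to 2.48, and it moved with single samples: it was 0.23 without Cripto KO replicate 2 and 0.17 without Control replicate 3, but 1.37 without Control replicate 1 and 1.45 without Cripto KO replicate 3. With pseudocounts of 0.5 and 1 it was 0.52 and 0.40. The interval on the fold scale reached from 0.557 to 5.58. The Poisson intervals of the summed reads did not overlap, but these sums were not scaled for sequencing depth. Every Cripto KO sample had more recovered reads than any Control, so the gap between these intervals does not compare levels. The SD of the normalized values was 71.2% of the mean in Control and 75.3% in Cripto KO samples.

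Of the bridging factors, Gas6 (ENSMUSG00000031451; chromosome 8, 13465374 to 13494490), the TAM ligand that binds AXL most tightly, was at 460, 552 and 528 in Control and at 642, 528 and 514 in Cripto KO samples. The highest value was that of Cripto KO replicate 1, and its 2 companions lay inside the Control range. The means were 513 ± 47.9 and 562 ± 70.4 (SD, n = 3), a fold change of 1.09 with an interval from 0.929 to 1.28 (log2 change 0.13, SE 0.10, limma-adjusted p = 0.769). The log2 fold change was 0.026 when Cripto KO replicate 1 was left out and 0.0497 when Control replicate 1 was. An exon stretch of 34 bases, or 1.33% of the exon bases of Gas6, overlaps Tmem255b on the opposite strand.

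Pros1 (ENSMUSG00000022912; chromosome 16, 62854307 to 62929346) encodes protein S, an anticoagulant that also serves as a ligand of MERTK. The Controls were at 67.6, 80.9 and 75.6, the Cripto KO samples were at 72.0, 81.5 and 71.3, and the values interleaved. The fold change was 1.00 (interval 0.873 to 1.15, adjusted p = 0.991, limma), with a sign that turned without Control replicate 1 or Cripto KO replicate 2. Gas6 exceeded Pros1 per kb of exon by 10.9-, 10.9- and 11.2-fold in Control and by 14.3-, 10.4- and 11.6-fold in Cripto KO replicates 1 to 3. The size of this ratio, too, depends on the exon length used. With the longest transcript, mean levels were 211 per kb for Gas6 and 22.7 per kb for Pros1. The Control ratios were nearly equal and those of Cripto KO samples lay on either side of them, with a difference of 0.12 on the log2 scale (exact two-sided permutation test, p = 0.6, also 0.6 after adjustment over 2 ratios).

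Mfge8 (ENSMUSG00000030605; chromosome 7, 79133768 to 79149060) encodes the secreted protein MFG-E8, which links phosphatidylserine to αv integrins, and had the smallest p-value of the 9 genes. It was at 353, 425 and 522 in Control and at 526, 583 and 492 in Cripto KO samples. Cripto KO replicate 3 lay below Control replicate 3, so that the groups overlapped, and the other Cripto KO samples were above all Controls. The means of 433 ± 84.3 and 534 ± 45.9 (SD, n = 3) corresponded to a fold change of 1.24 with an interval from 1.01 to 1.53 (log2 change 0.31, SE 0.13, limma unadjusted p = 0.0391, adjusted p = 0.548). The difference did not pass the threshold after adjustment, and under the alternatives the adjusted p lay from 0.508 up to 0.861. Leaving out Control replicate 1 gave a log2 fold change of 0.18, and leaving out Control replicate 3 gave 0.46. Its unadjusted p-value, too, was over 0.05 without Control replicate 1 or 2 and without Cripto KO replicate 1 or 2 (limma, 0.0672 to 0.131).

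Fibroblasts also express bridging factors, and the means of fibroblast markers were higher in Cripto KO samples, as was that of Mfge8. The cells had been sorted for GFP, which LysMCre switches on in myeloid cells, and for F4/80, an MP surface protein. All 15 fibroblast markers were in the table and had a log2 fold change above 0, beside 47.4% of all genes, with 0 of them past an adjusted p-value of 0.05 and 7 at an unadjusted p-value under 0.05 (limma), beside 8.59% of all genes, and none was at the floor in all samples. Their summed value was from 605 to 647 across Control and from 725 to 773 across Cripto KO samples. Col1a1, which encodes a chain of type I collagen, was at 195 ± 5.64 and 231 ± 11.1 (SD, n = 3), whereas Dcn and Lum, which encode small proteoglycans of the fibroblast matrix, had means between 3.28 and 8.93. The summed fibroblast markers did not overlap between the groups, while Mfge8 and Gas6 did. Their part in the values of Mfge8 and Gas6 was not tested.

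**Figure D4:**
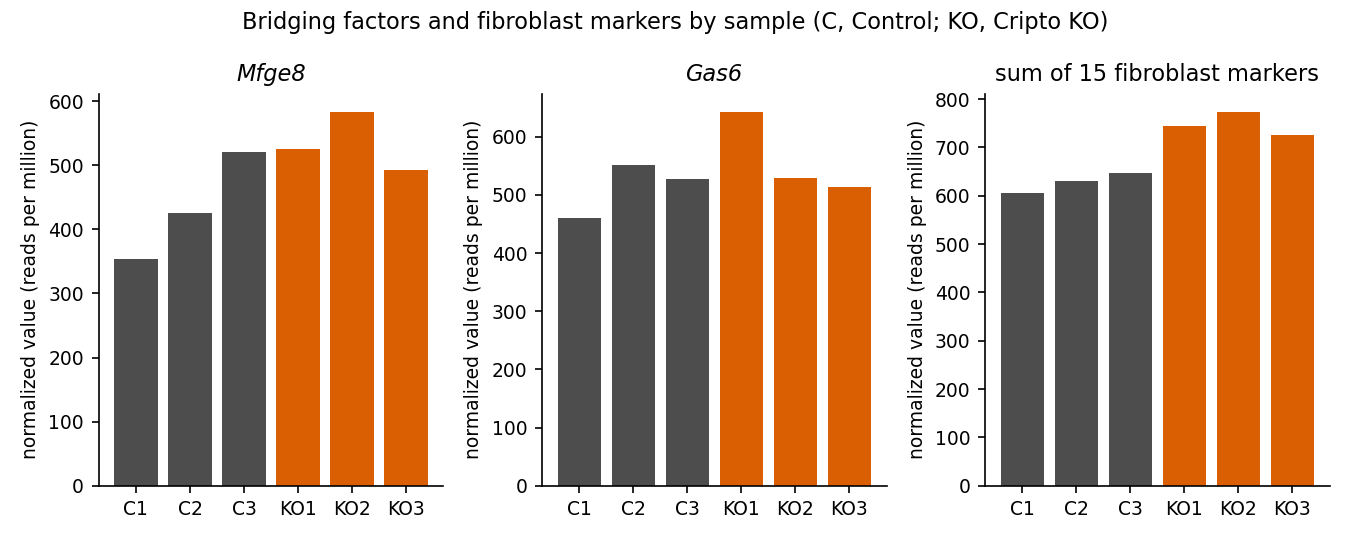
Normalized values (vertical axes, reads per 1000000, starting at 0) of Mfge8, Gas6 and the sum of 15 fibroblast markers in the 3 Control (C) and 3 Cripto KO (KO) samples. Bars are single samples. The marker sum lies from 605 to 647 across Control and from 725 to 773 across Cripto KO samples, whereas the values of Mfge8 and Gas6 overlap between the groups.

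In the engulfment machinery, Elmo1 (ENSMUSG00000041112; chromosome 13, 20090596 to 20608353), a scaffold that joins DOCK proteins to upstream receptors, was at 65.8, 70.0 and 67.2 in Control and at 72.5, 77.5 and 72.8 in Cripto KO samples. Every Cripto KO value was above every Control value, by a small margin. The means were 67.7 ± 2.13 and 74.3 ± 2.83 (SD, n = 3), a fold change of 1.10 with an interval from 0.988 to 1.22 (log2 change 0.13, SE 0.07, limma unadjusted p = 0.077, adjusted p = 0.64). Its log2 fold change stayed between 0.10 and 0.16 when single samples were left out. Of its exon bases, 403 (3.2%) overlap the antisense gene Gm32036, and without strand the reads of such a stretch cannot be told apart.

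Dock2 (ENSMUSG00000020143; chromosome 11, 34226815 to 34783892) encodes the RAC activator of blood cells. It had the smallest spread over the 6 samples among the 9 genes, at 147, 156 and 153 in Control and at 149, 147 and 149 in Cripto KO samples, and its highest value was 1.07 times its lowest. The groups overlapped, with means of 152 ± 4.94 and 148 ± 1.08 (SD, n = 3) and a fold change of 0.976 (interval 0.889 to 1.07, adjusted p = 0.903, limma). The log2 fold change lay between -0.0615 without Control replicate 1 and -0.0156 without Control replicate 2, and its sign turned with quantile normalization. Here 460 exon bases (4.03%) overlap the antisense gene 4930403D09Rik.

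Xkr8 (ENSMUSG00000037752; chromosome 4, 132724897 to 132732546) encodes the scramblase that exposes phosphatidylserine once caspases have cleaved it, so that it acts in the dying cell and not in the phagocyte. It was low in all samples, at 1.95, 2.38 and 1.75 in Control and at 3.02, 2.16 and 1.48 in Cripto KO samples, from 21 to 47 reads. Cripto KO samples gave both the highest and the lowest value. The fold change was 1.06 with an interval from 0.647 to 1.73 (log2 change 0.08, SE 0.31, limma-adjusted p = 0.963), and its sign turned without Control replicate 3 or Cripto KO replicate 1.

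The precision thus differed between the genes. For the 7 genes with at least 800 reads in every sample, the intervals ran from 0.828 to 1.53 times the Control level, whereas those of Timd4 and Xkr8 ran from 0.557 to 5.58. Within the groups, the SD was between 0.727% and 19.5% of the mean for these 7 genes.

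The remaining genes of the pathway were taken from a list of 100 genes in 10 roles, of which 92 were in the table. Of these 92, 0 passed an adjusted p-value of 0.05 in limma and in edgeR, beside 0.131% of all genes in either test. At an unadjusted p-value under 0.05 in limma, 4 were higher in Cripto KO MPs (3.99% of all genes were). At this level 6 were lower (4.6% of all genes were). The edgeR test gave 9 of the 92 genes at an unadjusted p-value under 0.05, beside 8.47% of all genes. In 19 of the 92 genes the groups did not overlap, beside 14.5% of all genes. The log2 fold change was above 0 for 33 of the 92 genes, beside 47.4% of all genes, with a median of -0.04.

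By role, the log2 fold change was above 0 for 6 of 10 genes that make, release or sense signals of dying cells. This held for 8 of 16 other receptors, 2 of 7 other bridging factors, 0 of 2 sheddases and 7 of 11 engulfment genes. The same held for 1 of 10 genes of digestion and lipid efflux, 2 of 8 transcription factors, 2 of 8 genes of membrane lipid asymmetry and 3 of 5 genes that signal against uptake. None of these roles held a gene past adjustment.

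The most abundant genes of the roles included opsonins and receptors. C1qb, a chain of the complement opsonin C1q, had means of 4511 in Control and 4366 in Cripto KO MPs, and Trem2, a lipid-sensing receptor, had means of 1157 and 1145. Psap, which encodes a lysosomal sphingolipid activator, was at 22217 and 21661, and Cyba, a subunit of the phagocyte oxidase, was at 1145 and 1094. P2ry6, a receptor for nucleotides that leak from dying cells, was at 168 and 162. Rac1, the GTPase downstream of ELMO and DOCK, was at 435 and 407. The intervals of these 6 log2 fold changes lay between -0.36 and 0.29. Adam17, a protease that sheds MERTK from the surface, was at 212 and 210.1, with a log2 fold change of -0.006.

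Sirpa, the receptor for the anti-phagocytic signal CD47, was from 940.4 to 1120.3 across Control and from 1138 to 1195 across Cripto KO MPs (log2 change 0.16, limma-adjusted p = 0.651). None of the genes with the smallest p-value of their role passed after adjustment. Cd24a, a surface protein that signals against uptake, had means of 25.4 in Control and 19.9 in Cripto KO MPs, with no overlap (log2 change -0.35, limma-adjusted p = 0.407). Among receptors, Cd300lb showed a log2 change of 0.24 (limma-adjusted p = 0.523), and its ranges overlapped. Adam10, another protease of the cell surface, was from 97.6 to 111 across Control and from 90.4 to 94.1 across Cripto KO MPs (log2 change -0.18, limma-adjusted p = 0.532). Lipa, the lysosomal acid lipase, and Pparg, a lipid-activated transcription factor, differed by 0.20 and 0.22 on the log2 scale (limma-adjusted p = 0.555 and 0.559), and the groups did not overlap in either gene. Calr, Sphk2, Rhog, Ano6 and Tmem30a had log2 fold changes between -0.14 and 0.11, with adjusted p-values from 0.62 to 0.722 (limma).

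In LC3-associated phagocytosis, autophagy proteins coat the corpse-bearing vacuole. The groups did not overlap in 8 of its 15 genes, beside 14.5% of all genes, and Atg16l1, which was higher in Cripto KO MPs, was among these 8. Of the 15 genes, 13 had a log2 fold change below 0 and 2 had one above 0, beside 47.4% of all genes above 0. The median was -0.10, and 0 of the 15 passed after adjustment while 4, all lower in Cripto KO MPs, had an unadjusted p-value under 0.05 (limma), beside 4.6% of all genes. Uvrag, a partner of the lipid kinase that starts the process, was at 106, 95.8 and 88.8 in Control and at 65.1, 88.8 and 76.6 in Cripto KO samples (log2 fold change -0.34, interval -0.60 to -0.08, adjusted p = 0.495, limma). Control replicate 3 and Cripto KO replicate 2 were almost equal, so that the groups were barely apart.

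**Figure D5:**
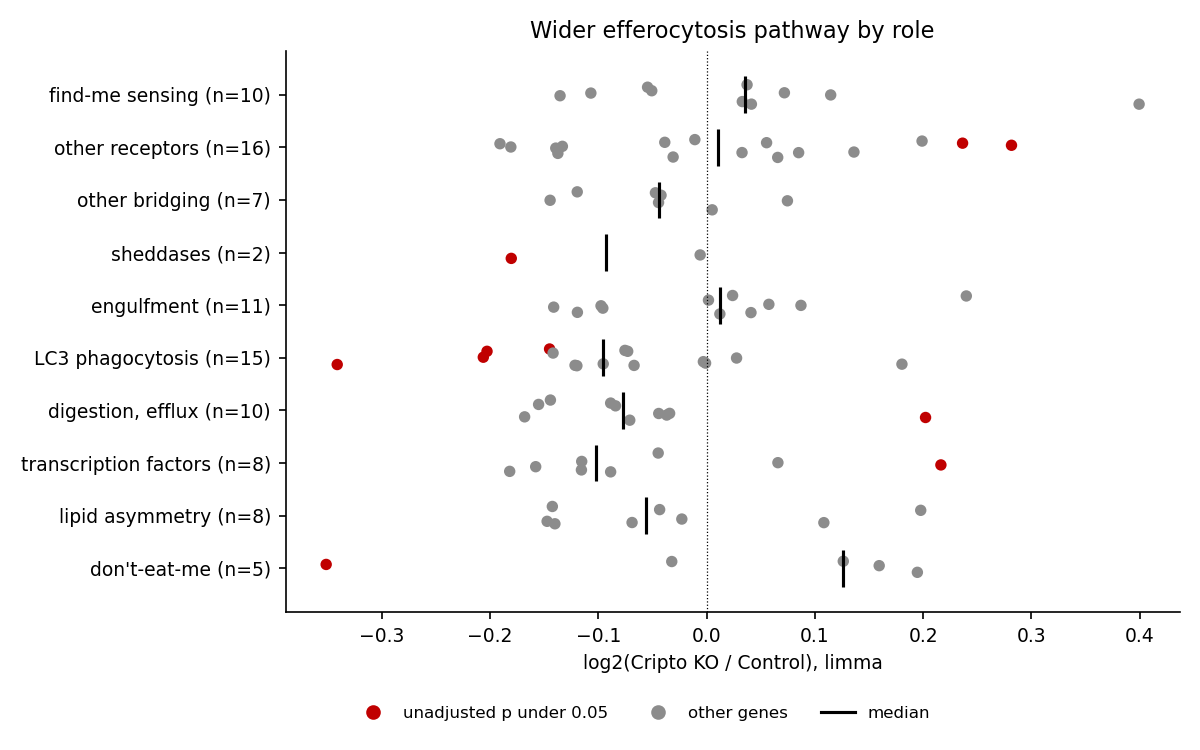
Log2(Cripto KO/Control) of 92 further genes of the pathway (horizontal axis) by role, with the number of genes in each role. Points are genes, shifted vertically at random for legibility, red ones have an unadjusted p-value under 0.05 and black lines are medians. No gene lies beyond 0.40 in either direction, and 0 passed after adjustment.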

How the data were processed

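The deposited table held 1 normalized signal value per gene and sample for 6 samples, 3 Control and 3 Cripto KO. According to the methods and the submitters' processing notes, the authors used FastQC and cutadapt 1.7.1 (reads under 30 bp discarded), RSEM 1.2.20 on GRCm38 with Ensembl release 91, and limma and edgeR. Whole reads were recovered from 100.0% of 78048 deposited signal values (tolerance 0.01 reads). A total of 147 rows had no gene name.

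Values were log2 transformed with no pseudocount and tested with limma 3.58.1 (R 4.3.3, lmFit and eBayes with a trend, Cripto KO minus Control) over 13008 genes with Benjamini-Hochberg adjustment at 0.05. Recovered reads were tested with edgeR 4.0.16 (quasi-likelihood) and DESeq2 1.42.0 as alternatives, beside other pseudocounts, a filter, scalings, limma options, the replicate number as a block and leaving out each sample. The scripts were tested on simulated data. Ratios of levels were compared by exact permutation over samples (scipy 1.17.1). Coordinates, overlaps and exon lengths came from GENCODE M21 (GRCm38), and levels per kb were available for 12989 genes. Poisson intervals and the floor of 3 reads cover counting error only.

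The 10 genes, the list of 100 pathway genes and the marker lists were chosen with earlier results of these data known. From each role of the pathway list, the gene of highest mean value and the gene of smallest p-value were named, except 1 gene that is not reported here, while Col1a1, Dcn, Lum, Xist and Lyz2 were named after their values were seen.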

Additional observations from a re-analysis of the deposited data

How the results depend on the processing

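None of the 9 genes and none of the 92 further pathway genes passed an adjusted p-value of 0.05 in limma or under any of 19 alternatives (0 genes in each, including DESeq2, the edgeR settings and voom), and the smallest adjusted p-value among the 9 genes lay between 0.467 and 0.861. At an unadjusted p-value under 0.05 there was Mfge8 alone or 0 of the 9 genes under these alternatives, except Mertk alone without Control replicate 1 and Mfge8 with Elmo1 under quantile normalization. Over all 13008 genes the number past adjustment moved from 17 to 71 with DESeq2, 31 with robust eBayes, 9 with voom, 6 with quantile normalization and 5 without a trend, and lay between 5 and 31 when single samples were left out (31 without Control replicate 1); the cause was not tested. The log2 fold change of Dock2 turned to 0.0064 with quantile normalization. When single samples were left out, the log2 fold change ranged from -0.0861 to 0.0843 for Axl (below 0 without Control replicate 3 or Cripto KO replicate 1, the latter -0.0761), from -0.0649 to 0.0648 for Pros1 (below 0 without Control replicate 1, or at -0.0569 without Cripto KO replicate 2) and from -0.17 to 0.34 for Xkr8 (below 0 without Cripto KO replicate 1, or at -0.0186 without Control replicate 3). Likewise the group difference of the log2 ratio of Axl to Mertk ranged from -0.0147 to 0.20 (below 0 without Cripto KO replicate 1, or at -0.0072 without Control replicate 3), that of Gas6 to Pros1 from -0.0067 (without Cripto KO replicate 1) to 0.22, and the number of genes whose groups did not overlap from 1 to 3. Replicate numbers gave no sign of pairing: deviations of same-numbered samples correlated at -0.21, -0.005 and 0, and no sample correlated best with its own number. With 3 samples per group, these correlations cannot exclude a pairing. With the replicate number as a block, 2 genes over the whole table and 0 of the 9 passed. Timd4 and Xkr8 had the fewest reads and the widest intervals of the 9 genes, and the part of read number in this was not tested.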
